A study of Mus musculus with 6 samples.

Results

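The genes described here encode histones, the proteins that package DNA, in CD8 T cells from mouse tumours. They were chosen by symbol, as every row of the deposited table that starts with Hist1h, Hist2h, Hist3h, Hist4h, H1f, H2af or H3f. The rule gave 73 of 15601 genes, 62 with a Hist symbol and 11 with an H1f, H2af or H3f symbol. The cells came from 3 male and 3 female samples of wild-type C57BL6 mice of 6 to 8 weeks with a subcutaneous MB49 tumour, a urothelial carcinoma line, taken on day 10. Live CD3+ CD8+ CD4- cells were sorted and profiled one by one with a 10x Genomics 3' kit. Both sexes carried the same tumour line. The labels call the samples biological replicates and do not say whether a sample was 1 mouse or a pool.

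Most histone genes are replication-dependent: their mRNA accumulates in S phase, when new DNA is packaged, and ends in a short stem-loop in place of a poly(A) tail. The stem-loop is bound by the protein Slbp and the transcript is trimmed by a dedicated 3' end machinery. Replacement histones such as H3.3 (H3f3a, H3f3b) and H2A.Z (H2afz, H2afv) mostly come from genes with introns and polyadenylated mRNA, and are deposited outside replication as well. A 3' kit primes on poly(A), so the Hist levels below are those of the molecules that the kit captured, and how the captured share differed between genes or cells was not tested. T cells divide quickly once activated, and a sorted tumour population holds both dividing and non-dividing cells.

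The stem-loops are shown because the loop is the textbook feature of replication-dependent histone mRNA. In GENCODE M21 transcripts (build mm10), 72 of the 73 symbols had a match. The canonical histone stem-loop was searched on the transcript strand. It stood in an annotated 3' UTR of 35 of 48 Hist genes with a UTR of at least 30 bases, and of 0 of 10 replacement genes. Hist1h2ap (H2A), Hist1h1e (linker histone H1) and Hist1h3a (H3) carry the commonest core, found in 25 genes. Hist1h4d carries a core found in 7 genes, Hist1h4b 1 found in 2 genes and Hist1h4a 1 found in 1 gene. All lie on chromosome 13, and capitals mark the 16-base core.
Hist1h2ap: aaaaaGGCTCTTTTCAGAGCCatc
Hist1h1e: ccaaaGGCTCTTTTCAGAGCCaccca
Hist1h3a: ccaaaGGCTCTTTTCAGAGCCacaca
Hist1h4d: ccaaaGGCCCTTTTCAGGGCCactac
Hist1h4b: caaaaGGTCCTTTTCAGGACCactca
Hist1h4a: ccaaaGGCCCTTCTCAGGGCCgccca
A missing match says only that these letters are not in the annotated UTR.

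Of the 61 Hist genes with a position, 49 lay on chromosome 13 between 21715763 and 23764406, 9 on chromosome 3, 2 on chromosome 11 and 1 on chromosome 6. Promoter windows (250 bases before to 50 after the start, RefSeq, GRCm38.p6) were found for 55 Hist and 9 replacement genes, and 7 pairs of H2A and H2B genes on opposite strands shared most of their window. The letters CCAAT, read on both strands, stood in 46 of 55 Hist windows (83.6%), in 6 of 9 replacement windows (66.7%) and in 37.4% of 32851 windows of all genes. All 43 H1, H2A, H2B and H3 windows held CCAAT, against 3 of 12 H4 windows. TATAAA stood in 33 of 55 Hist windows (60%) and 1 of 9 replacement windows, against 13.6% of all windows. The octamer ATTTGCAT, known as an H2B promoter element, stood in 6 of 13 H2B and 6 of 15 H2A windows, in 0 H1, H3 or H4 windows, in 1 replacement window (H3f3b) and in 1.74% of all windows. The 3 motifs do not overlap one another in letters. Below, capitals mark the motif letters in 2 of the Hist genes with most reads and in H2afz, whose window held CCAAT on both strands but neither other motif.
Hist1h1b, chr13:21780576-21780875, minus strand: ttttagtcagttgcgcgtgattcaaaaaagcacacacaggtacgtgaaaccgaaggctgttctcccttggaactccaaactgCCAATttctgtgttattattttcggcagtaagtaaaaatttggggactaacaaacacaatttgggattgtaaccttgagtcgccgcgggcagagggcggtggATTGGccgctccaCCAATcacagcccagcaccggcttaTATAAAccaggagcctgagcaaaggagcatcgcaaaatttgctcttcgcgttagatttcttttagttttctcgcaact
Hist1h2ae, chr13:23571171-23571470, minus strand: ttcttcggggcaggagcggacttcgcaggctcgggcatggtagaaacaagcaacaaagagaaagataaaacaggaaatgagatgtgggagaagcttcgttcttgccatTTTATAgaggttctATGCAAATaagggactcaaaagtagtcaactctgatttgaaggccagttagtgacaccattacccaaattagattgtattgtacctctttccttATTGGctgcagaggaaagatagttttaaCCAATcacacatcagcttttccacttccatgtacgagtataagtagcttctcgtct
H2afz, chr3:137864237-137864536, plus strand: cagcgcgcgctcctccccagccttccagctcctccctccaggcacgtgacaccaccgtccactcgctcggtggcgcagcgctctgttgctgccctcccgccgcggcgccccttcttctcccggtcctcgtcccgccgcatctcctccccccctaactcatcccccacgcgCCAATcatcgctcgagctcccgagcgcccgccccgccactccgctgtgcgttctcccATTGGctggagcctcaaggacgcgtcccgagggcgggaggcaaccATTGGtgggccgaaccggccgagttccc
The Hist1h2ae window shares 279 bases with that of Hist1h2bg on the other strand, so the same octamer serves as a match for both genes.

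The deposited cells numbered 26698 with 295211042 unique molecular identifiers (UMIs), and the 6 libraries held 2121 to 7156 cells and 25562319 to 66105318 UMIs. The authors' 11 clusters were used as deposited. Clusters 3 and 5 are called cycling here. Of 10 proliferation markers checked, only Mcm5 was highest in cluster 5, at 175 CPM against 173 CPM in cluster 3. The others, among them Mki67 and Top2a, were highest in cluster 3. Summed, the 10 stood at 4041 CPM in cluster 3, 1374 CPM in cluster 5 and 1293 CPM in cluster 6. In clusters 0, 1, 4, 7, 8 and 9 they summed to at most 260 CPM. Clusters 0, 1, 4, 7, 8 and 9 are called resting, and 2, 6 and 10 were kept apart. The innate-like marker list summed to 1230 CPM in cluster 2 and to 926 CPM in cluster 4, with overlapping library ranges, so the resting group still holds cells with these markers. Clusters 6 and 10 had medians of 1742 and 1461 UMIs and median mitochondrial shares of 30.03% and 20.285%. The CD8 T cell markers summed to 2388 and 2781 CPM (a gene's UMIs scaled to the total UMIs of the same cells) in clusters 3 and 5, and the summed myeloid, B cell, tumour epithelial and CD4 lists to at most 14.83 CPM each there. A cluster is a state built from the same genes, so levels between clusters carry no test. Median depth was 23988 and 18351 UMIs per cell in clusters 3 and 5 and 5345 to 13987 in the resting clusters, and 84 barcodes (169 cells) occurred in more than 1 library.

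Hist mRNA was concentrated in cycling cells. The summed level of the 62 Hist genes was 1925 ± 432 CPM in cycling cells and 171 ± 29.96 CPM in resting cells (SD, n = 6 libraries). In cycling cells it stood at 1644, 2551 and 1451 CPM in male libraries 1, 3 and 4 and at 2321, 1643 and 1939 CPM in female libraries 2, 5 and 6. In resting cells it stood at 146, 202 and 149 CPM in the male and 212, 144 and 172 CPM in the female libraries. Each cycling value lay above each resting value, and male library 3 and female library 2 were the highest in both states. In cluster 3 they also had the highest median depth, 28063.5 and 28293.5 UMIs per cell, against 21226.5 to 27023.5 in the other libraries. The part of depth in the spread between libraries was not tested. Without male library 3 and female library 2, the means were 1669 CPM in cycling and 153 CPM in resting cells. The 11 replacement genes summed to 5020 ± 136 CPM in cycling and 3562 ± 162 CPM in resting cells, also without overlap. Hist mRNA amounted to 38.4 ± 8.59% of replacement mRNA in cycling and 4.80 ± 0.841% in resting cells.

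Cluster 3 held most Hist mRNA. It contained 9.64 ± 1.80% of the cells and 23.3 ± 2.75% of all UMIs, but 78.0 ± 2.90% of Hist UMIs and 32.4 ± 3.07% of replacement UMIs (SD, n = 6 libraries). Its summed Hist level was 2944 ± 688 CPM, against 479 ± 76.3 CPM in cluster 5. The resting clusters had means of 135 to 229 CPM, with cluster 8 the highest and cluster 4 the lowest, and their library ranges overlapped. Cluster 6 had 545 ± 193 CPM of Hist mRNA and 1625 ± 157 CPM of replacement mRNA, and cluster 10 had 320 ± 138 and 2118 ± 257 CPM. In cluster 6 Mki67 and Top2a averaged 393.8 and 419.5 CPM, second to cluster 3. The part of low depth, mitochondrial RNA and cycling cells in the cluster 6 level was not tested.

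**Figure D1:**
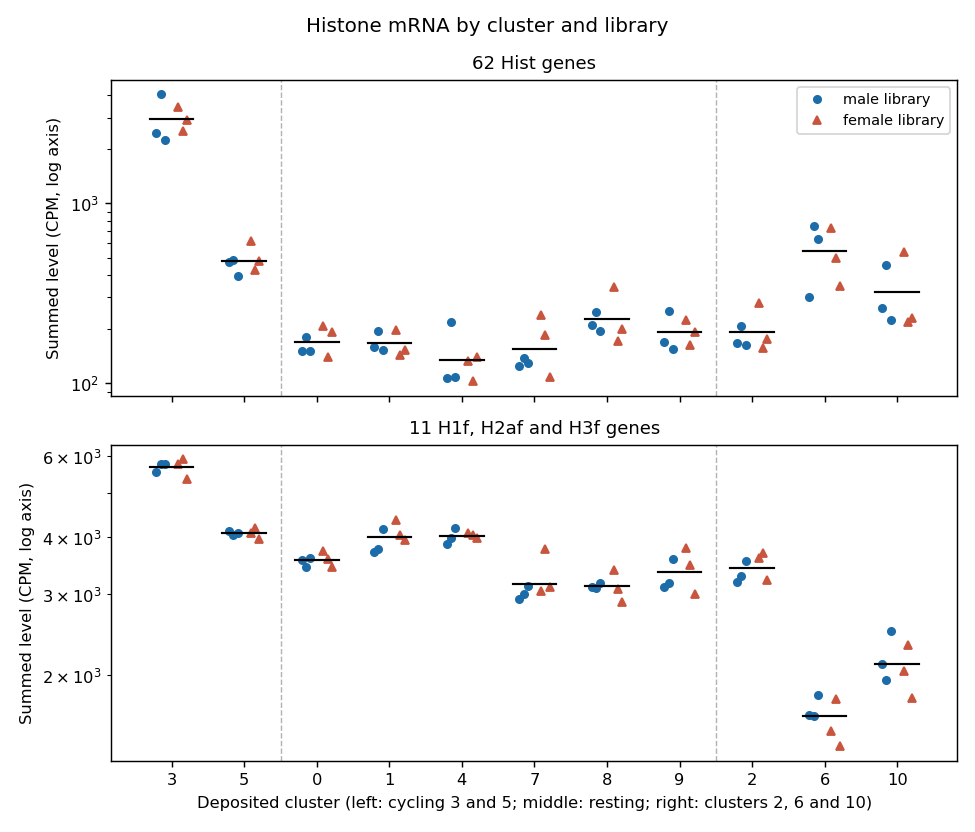
Summed level of the 62 Hist genes (top) and the 11 H1f, H2af and H3f genes (bottom) in each deposited cluster, in CPM on log axes; points are libraries, circles male and triangles female, and bars are means of 6 libraries. Cluster 3 stood highest in both, at 2944 and 5690 CPM.

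Of the 73 genes, 71 had at least 60 UMIs over cycling and resting cells, leaving out Hist1h2ad and Hist1h2ah. Of 60 Hist genes measured, 49 were higher in every cycling than in any resting library value and 0 were lower, where 18.7% of 12135 measured genes were higher and 11.9% lower in that way. A level at least 2-fold higher was found for 51 of 60 Hist genes, against 7.48% of all measured genes. The median log2 difference was 2.64 for Hist genes, 0.76 for the 11 replacement genes and -0.01 for all measured genes. Position divided the Hist genes: 47 of 47 measured on chromosome 13 were at least 2-fold higher, with a median of 6.81-fold, and 3 of 12 elsewhere, with a median of 1.5-fold. The remaining measured gene, listed as Hist2h2bb.1, had no annotated position.

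By histone type, the 16 H2A genes summed to 1111 ± 355 CPM in cycling and 45.7 ± 10.9 CPM in resting cells, 24.3-fold higher. The 5 linker histone H1 genes summed to 422 ± 54.7 and 51.8 ± 9.73 CPM (8.15-fold), the 12 H3 genes to 133 ± 27.5 and 15.6 ± 3.88 CPM (8.51-fold), the 16 H2B genes to 132 ± 27.9 and 27.9 ± 3.32 CPM (4.72-fold) and the 13 H4 genes to 127 ± 20.4 and 29.7 ± 6.42 CPM (4.28-fold), in cycling and resting cells. Core histones enter the nucleosome in equal number, while captured mRNA of the 4 core types was uneven, with 1 H2A gene holding much of the sum.

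That gene was Hist1h2ap, an H2A gene on chromosome 13 (21833026-21833507), which held 38.4% of the Hist UMIs of cycling cells. It stood at 469, 1177 and 506 CPM in cycling cells of male libraries 1, 3 and 4 and at 979, 582 and 853 CPM in those of female libraries 2, 5 and 6. In resting cells it stood at 9.71, 27.5 and 14.3 CPM in the male and 19.6, 11.3 and 21.4 CPM in the female libraries. The states did not overlap, and within each library the cycling level was 35.5 to 51.6 times the resting level. Sequence limits what its count means: 92.4% of the 90-base windows of its transcripts are identical in another histone gene of the list. Such windows occurred in 54 of 61 Hist genes and in 1 of 11 replacement genes, and how reads from them were assigned is not given in the sources used here.

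Hist1h1b and Hist1h2ae followed with 12.1% and 10.9% of the Hist UMIs of cycling cells. Hist1h1b, which encodes linker histone H1.5 and shares no 90-base window, averaged 222 ± 31.7 CPM in cycling and 4.18 ± 0.940 CPM in resting cells (SD, n = 6 libraries), 53.0-fold higher. Its cycling levels were 260, 249 and 196 CPM in male and 212, 234 and 178 CPM in female libraries. Male library 3 and female library 2, highest for Hist1h2ap, did not lead here. Hist1h2ae, an H2A gene, averaged 209 ± 46.0 CPM in cycling and 6.88 ± 2.04 CPM in resting cells (30.4-fold).

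The other 9 of the 12 Hist genes with most UMIs differed widely in their ratio. Hist1h2ab (H2A) averaged 39.9 ± 12.03 CPM in cycling and 0.735 ± 0.215 CPM in resting cells, 54.2-fold higher, and Hist1h3c (H3) 54.9 ± 9.82 CPM in cycling and 3.12 ± 0.915 CPM in resting cells, 17.6-fold higher. The linker histone genes Hist1h1e, Hist1h1d and Hist1h1c were 5.22-fold, 6.38-fold and 2.17-fold higher in cycling cells. Hist1h1c, which encodes H1.2, still stood at 21.7 ± 4.88 CPM in resting cells, the highest resting level among Hist genes. Hist1h2bj (H2B), Hist2h2ac (H2A), Hist1h4d (H4) and Hist1h4i (H4) were 11.2-fold, 8.24-fold, 6.59-fold and 4.15-fold higher. For all 12, no cycling value overlapped a resting value.

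The 9 Hist genes under 2-fold all lay outside chromosome 13. Hist3h2a and Hist3h2ba, an H2A and H2B pair on chromosome 11, had 10.5 ± 0.995 and 14.2 ± 3.38 CPM in cycling and 10.1 ± 0.820 and 8.49 ± 1.10 CPM in resting cells. Within libraries Hist3h2ba was higher in cycling cells in 6 of 6, by 1.31-fold to 2.65-fold. The H4 genes Hist4h4 and Hist2h4 were 1.06-fold and 1.41-fold higher in cycling cells, with overlapping library values, and Hist2h2be 1.80-fold. Hist2h2bb, Hist2h2ab, Hist2h3c1 and Hist2h3c2, with 83 to 134 UMIs in all cells, ranged from 0.788 to 1.60 times the resting level. A poly(A) signal near the end of an annotated UTR occurred in 14 measured Hist genes, 6 of them among these genes outside chromosome 13, so 3' end and position cannot be told apart over all Hist genes. On chromosome 13 the ratio had a median of 5.21 (2.17 to 30.4) in the 8 genes with such a signal and of 6.67 (2.02 to 69.4) in the 29 with a UTR but no signal, with overlapping ranges. Outside chromosome 13 the median was 1.23 (0.88 to 1.80) in the 6 genes with a signal. It was 3.87 (0.788 to 8.24) in the 4 there with a UTR but no signal, also with overlapping ranges. Over all Hist genes the median was 6.33 where the UTR ended within 50 bases of the stem-loop, 4.97 where it extended further and 8.21 where no stem-loop was found.

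Replacement genes differed by member. H2afz, the main H2A.Z gene, averaged 1441 ± 44.2 CPM in cycling and 430 ± 35.8 CPM in resting cells (3.35-fold), and H2afv, the second H2A.Z gene, 302 ± 27.0 CPM in cycling and 109 ± 10.5 CPM in resting cells (2.76-fold). H2afx, whose product H2A.X is phosphorylated at DNA breaks, stood at 170, 176 and 165 CPM in cycling cells of the male and 174, 178 and 169 CPM in those of the female libraries. In resting cells it stood at 30.3, 26.1 and 29.5 CPM in the male and 27.7, 25.8 and 30.6 CPM in the female libraries. It was 6.07-fold higher in cycling cells, with little spread between libraries. Smaller differences were found for H3f3b at 1556 ± 90.4 and 1542 ± 143 CPM, H3f3a at 980 ± 56.0 and 920 ± 54.5 CPM, H2afy (macroH2A) at 315 ± 18.5 and 281 ± 17.9 CPM and H2afj at 213 ± 19.8 and 225 ± 19.5 CPM, in cycling and resting cells. The linker histone gene H1f0 had 39.5 ± 8.35 CPM in cycling and 23.4 ± 5.43 CPM in resting cells. For these 5 genes values overlapped between the states across libraries. Within libraries, however, the cycling level was higher in 6 of 6 for H1f0 (1.448-fold to 2.01-fold), H2afy (1.07-fold to 1.17-fold) and H3f3a (1.05-fold to 1.09-fold), but not for H3f3b (0.948-fold to 1.10-fold) or H2afj (0.896-fold to 1.02-fold).

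H1foo, known as the oocyte linker histone gene, and H1fx had 103 and 90 UMIs in all cells and were higher in every cycling value. H3f3aos, with 130 UMIs, is annotated antisense to H3f3a and overlaps it only at 1 end. With the strand of counting not given, reads in the overlap cannot be told apart. In all, 5 of 11 replacement genes were higher without overlap.

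**Figure D2:**
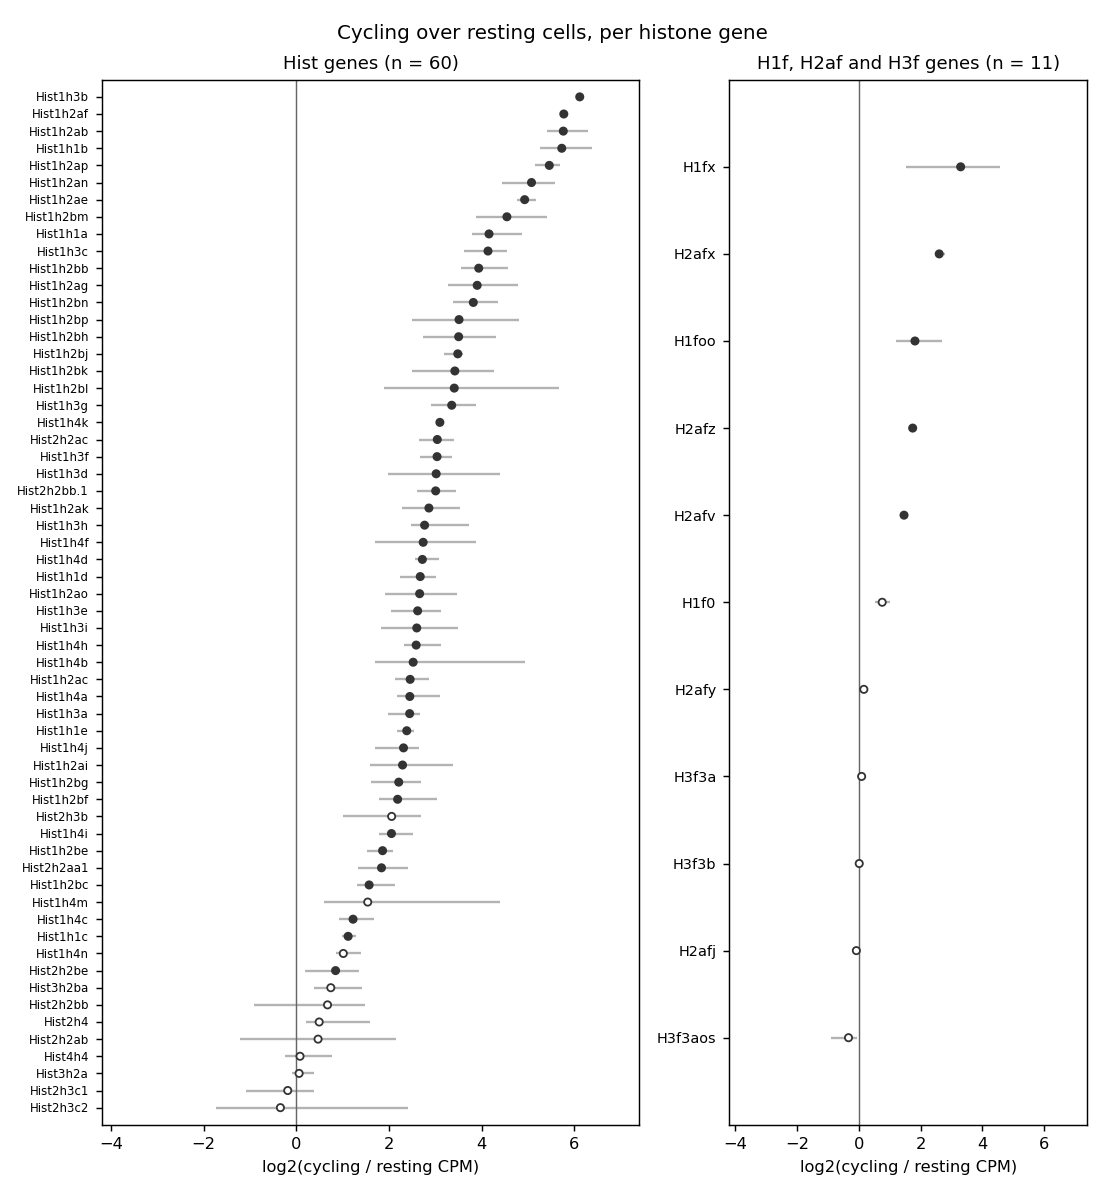
Ratio of the level in cycling (clusters 3 and 5) to that in resting cells (clusters 0, 1, 4, 7, 8 and 9) per gene on a log2 axis, for 60 Hist and 11 replacement genes; points are ratios of the mean over 6 libraries, grey lines the range of the 6 library ratios (none drawn where a library had 0 UMIs in resting cells). Filled points mark genes with no overlap between cycling and resting values, and the lowest Hist rows are genes of chromosomes 3, 6 and 11.

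Within cycling cells, levels were followed along the cell cycle with genes that are not histones. Each cell of clusters 3 and 5 with at least 20 UMIs on 2 lists got an S share, the share of UMIs from 39 S phase genes among those from the S phase and 48 G2/M genes together. Of 4776 cells, 4748 qualified, and they were cut into 10 equal bins within each library, where bin 1 had a mean S share of 7.53% and bin 10 of 66.3%. Neither list holds a histone gene. The summed Hist level was 1981 ± 570, 2636 ± 605, 2835 ± 645, 2679 ± 629, 2494 ± 803, 2165 ± 605, 1763 ± 434, 963 ± 300, 481 ± 133 and 324 ± 75.3 CPM in bins 1 to 10 (SD, n = 6 libraries). It peaked in bin 3 and was lowest in bin 10. The bins order cells by the lists, so list genes follow them by construction, but not all peak in bin 10: of the S list, Mcm5, a replication licensing gene, was highest there at 243 CPM, while Pcna, the replication clamp, peaked in bin 6 at 349.6 CPM with 271 CPM in bin 10. Nasp, a histone chaperone outside both lists, also peaked in bin 6, at 254 CPM, with 195 CPM in bin 10. Bin 10 is the highest S share, not a measured point of S phase. The 11 replacement genes gave 5792 ± 235 CPM in bin 1 and 3593 ± 221 CPM in bin 10. Bins 1 to 5 held 60.1% to 82.1% cluster 3 cells and bin 10 held 1.79%.

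Peaks differed among members. Of 35 Hist genes with at least 500 UMIs in cycling cells, 29 had their highest mean in bins 2 to 4, 3 in bin 1 and 3 in bins 5 to 7. Hist1h2bc (H2B), Hist3h2a and Hist3h2ba peaked in bin 1. Hist1h2bc stood at 47.3 ± 10.8 CPM there and 4.53 ± 2.46 CPM in bin 10. Hist1h1b peaked in bin 5 at 326 ± 71.3 CPM, Hist1h1a (linker histone H1.1) in bin 6 at 29.0 CPM and Hist1h3a in bin 6 at 26.2 ± 9.31 CPM. These are peaks of the mean. In single libraries the peak lay in bins 3 to 5 for Hist1h1b, 3 to 6 for Hist1h1a and 5 to 8 for Hist1h3a. For Hist1h2ap it lay in bins 2 to 5, so these ranges overlap. H2afx was lower in each successive bin, with 356 ± 40.4 CPM in bin 1 and 26.9 ± 5.20 CPM in bin 10, while H3f3a and H2afy varied by at most 1.10-fold and 1.08-fold over the bins. Slbp peaked in bin 5 at 282 ± 29.9 CPM, after 90.9 ± 14.1 CPM in bin 1.

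**Figure D3:**
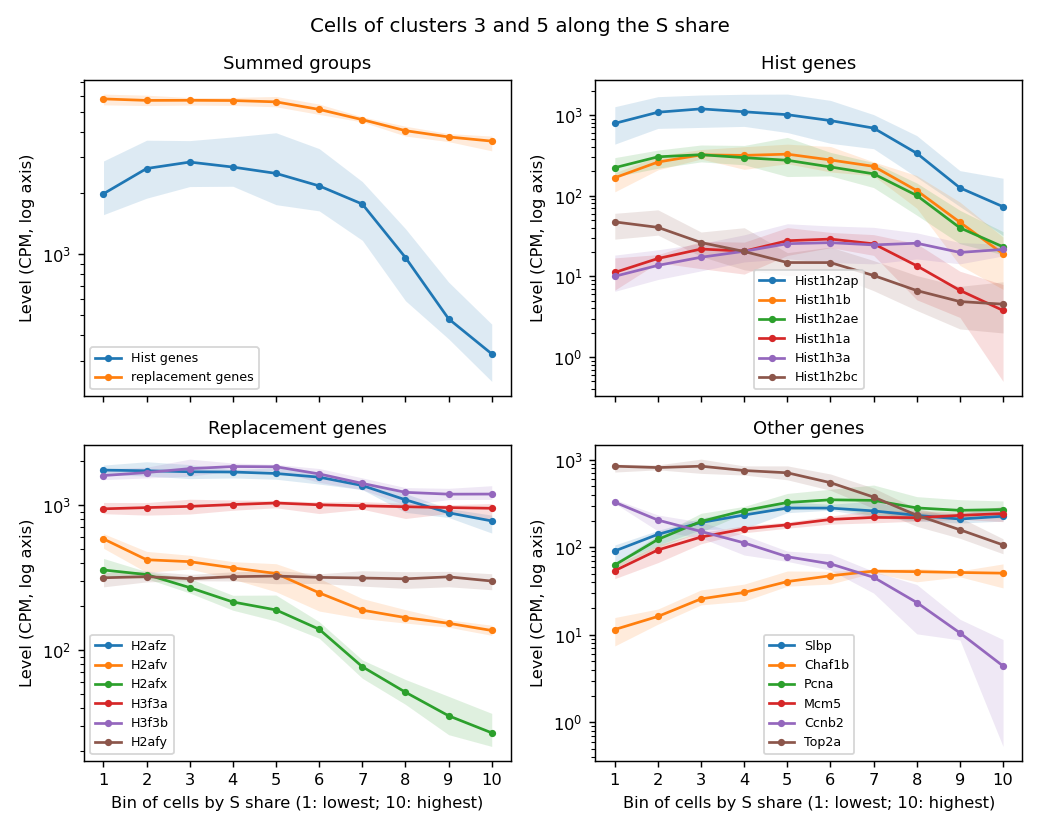
Mean level in CPM (log axes) in 10 equal bins of the cells of clusters 3 and 5, ordered by S share from lowest (1) to highest (10), with bands for the range of 6 libraries; values under 0.5 CPM are drawn at 0.5. Hist mRNA peaked in bin 3 at 2835 CPM, Hist1h1a and Hist1h3a in bin 6, and H2afx, H2afv and Hist1h2bc in bin 1.

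To test the difference, cells were cut into 3 equal classes by S share within each library, and the highest class (S-rich) was set against the lowest (G2/M-rich), with edgeR's quasi-likelihood test, the library as a block and Benjamini-Hochberg adjustment over all 10313 genes tested outside the lists. The names refer to the share of list UMIs, not to a measured phase or to the amount of S phase mRNA. S-rich cells had library medians of 88 to 157 UMIs on the 2 lists, against 223 to 378.5 in the middle class and 277 to 389 in G2/M-rich cells. The S phase list summed to 3843 CPM in cluster 3 and 2822 CPM in cluster 5, and the G2/M list to 10610 and 3451 CPM. Of the 73 members, 61 passed the filter on low counts, and 57 were called at an adjusted p under 0.05, 1 higher and 56 lower in S-rich cells. Among all genes, 46.5% were called, 23.1% higher and 23.4% lower. Of 53 Hist genes tested, 51 were lower, Hist1h3a was higher and Hist1h4b was not called (-0.26, adjusted p = 0.381). Hist genes had a median log2 difference of -1.57, against -0.65 for the 8 replacement genes tested and 0.00 for all genes. The 12 members not tested had 31 to 210 UMIs in all cells.

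Hist1h2ap showed the size of the difference in single libraries. It stood at 160, 417 and 138 CPM in S-rich cells of male libraries 1, 3 and 4 and at 285, 174 and 341 CPM in those of female libraries 2, 5 and 6. In G2/M-rich cells it stood at 649, 1540 and 693 CPM in the male and 1463, 809 and 1094 CPM in the female libraries. S-rich cells were lower in 6 of 6 libraries, and the log2 difference was -2.09 (SE 0.11, adjusted p = 2.92e-05). Within cluster 3 alone the difference was -0.30, and within cluster 5 alone it was -0.335 and not called. The lowest differences belonged to H2afx (log2 difference -2.89, SE 0.05, adjusted p = 5.54e-26), Hist1h2af (-2.67), Hist1h2bc (-2.56), Hist1h3d (-2.40) and Hist1h2ab (-2.25), all lower in S-rich cells. H2afx stood at 34.5 to 50.5 CPM in S-rich cells and at 291 to 324 CPM in G2/M-rich cells of the 6 libraries.

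Hist1h3a was the 1 member higher in S-rich cells. It stood at 23.6, 25.0 and 19.5 CPM in S-rich cells of the male and 27.3, 18.5 and 20.9 CPM in those of the female libraries. In G2/M-rich cells it stood at 14.3, 11.3 and 11.99 CPM in the male and 22.0, 11.2 and 16.5 CPM in the female libraries. It was higher in 6 of 6 libraries, by a log2 difference of 0.64 (SE 0.09, adjusted p = 6.36e-07), although the values of female library 2 in G2/M-rich cells overlapped the S-rich range of the others. Its stem-loop core is the commonest 1, shown above, and 33.7% of its 90-base windows are shared.

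Among the other Hist genes with most UMIs, log2 differences of S-rich minus G2/M-rich cells were -1.98 for Hist1h2ae, -1.64 for Hist1h1b, -1.54 for Hist1h1e, -1.34 for Hist1h1c, -1.25 for Hist1h4i, -1.56 for Hist1h3c, -1.53 for Hist1h4d, -1.34 for Hist1h2bj, -1.69 for Hist2h2ac and -1.39 for Hist1h1d. All 10 were called lower. Of the replacement genes, H2afv fell by 1.54, H1f0 by 1.49, H2afz by 0.83 and H3f3b by 0.48 on the log2 scale, all called. H3f3a, H2afy and H2afj had log2 differences of -0.02, -0.02 and 0.02 and were not called (adjusted p = 0.543, 0.631 and 0.671).

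The classes differed in cluster: S-rich cells were 9.25% to 18.2% cluster 3 cells and G2/M-rich cells 65.2% to 74.4%. With cells of cluster 3 alone, 28 of 60 members were called, a share near the 49.5% of all genes called there. Of the 28, 24 were lower and 4 higher in S-rich cells, where 24.7% of genes were lower and 24.8% higher. With cluster 5 alone 22 of 37 members were called, 20 lower and 2 higher, where 26.7% of genes were called, 13.5% lower and 13.2% higher. Within cluster 3, Hist1h3a (log2 difference 1.12), Hist1h1a (0.88), Hist1h4b (0.69) and Hist1h1b (0.20) were the 4 higher ones, so Hist1h1b changed direction. Hist1h2bc, H2afx and Hist3h2ba were lowest there, at -1.68, -1.53 and -1.46. Called lower both in cluster 3 and in cluster 5 were 13 members, among them H2afz, H2afv, H2afx, H3f3b, H1f0, Hist1h2ae, Hist1h1c and Hist1h2bc. Several differences were much smaller within a cluster than over both clusters. Hist1h2ap had -0.30 in cluster 3 and -0.335 in cluster 5, against -2.09 over both. Hist1h2ae had -0.32 and -0.61, against -1.98, and Hist1h1e -0.136 and -0.207, against -1.54. In cluster 5 Hist1h2ap and Hist1h1e were not called. Hist1h4i and Hist1h2bc were not smaller in cluster 5, at -1.39 and -2.64. With each cell thinned to 4000 UMIs, 29 of 35 members were called, 27 lower and 2 higher, where 29.8% of genes were called, 14.2% lower and 15.7% higher.

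Because the bins showed the sum peaking between the ends, the middle class is described beside the outer classes, with no test, since the same cells prompted the comparison. The Hist sum was 2309 ± 588 CPM in the middle class, 759 ± 187 CPM in S-rich and 2545 ± 568 CPM in G2/M-rich cells. Hist1h1b stood higher in the middle class than in either outer class in 4 of 6 libraries: it had 345, 374 and 249.5 CPM in middle cells of male libraries 1, 3 and 4 and 256, 301 and 237 CPM in those of female libraries 2, 5 and 6, against 298, 251 and 249.8 CPM in G2/M-rich cells of the male and 268, 290 and 213 CPM in those of the female libraries. Hist1h2ap had 923 ± 374 CPM in middle, 252 ± 113 CPM in S-rich and 1042 ± 390 CPM in G2/M-rich cells, so its mean was highest in G2/M-rich cells. The largest fitted differences of the middle class minus the mean of the outer classes were those of Hist1h3d (log2 1.2), Hist1h1a (1.02) and Hist1h1b (0.98). Middle cells had the highest median depth of the 3 classes in 5 of 6 libraries.

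**Figure D4:**
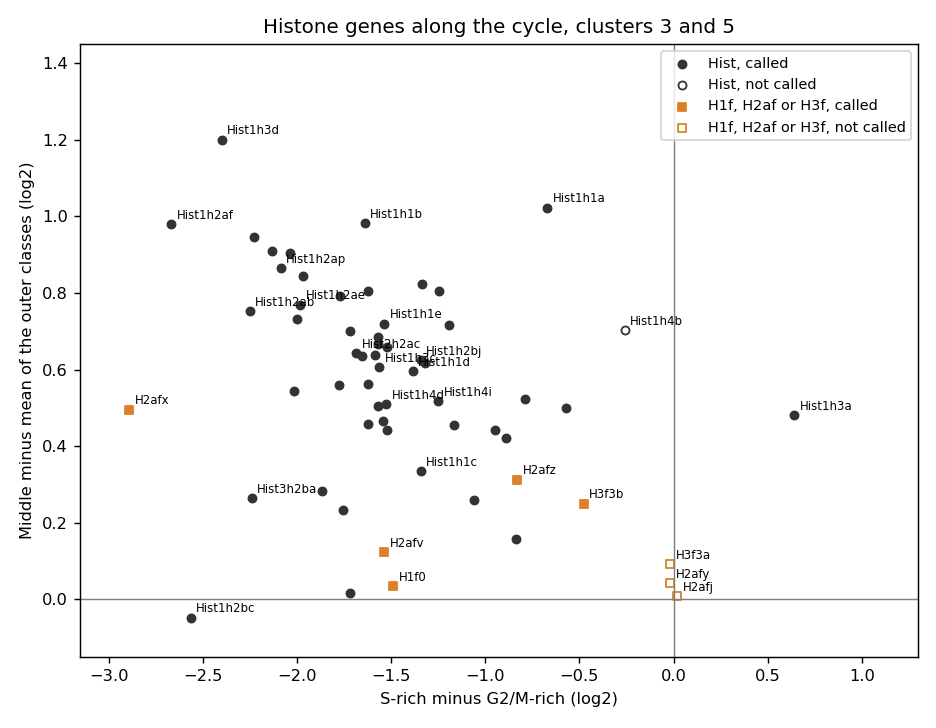
Each histone gene by its S-rich minus G2/M-rich log2 difference (x) and its middle minus mean of the outer classes log2 difference (y, a description with no test), cells of clusters 3 and 5, 6 libraries; circles are Hist and squares H1f, H2af or H3f genes, filled where the x difference was called. Hist1h3a lies right of 0, and H3f3a, H2afy and H2afj lie near 0 on x.

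The genes that process histone mRNA and carry histones were read from 2 lists. Of 15 histone mRNA processing genes, 9 were higher in cycling than resting cells without overlap and 0 lower, where 18.7% of all measured genes were higher and 11.9% lower. Slbp, the stem-loop binding protein, averaged 219 and 92.3 CPM in cycling and resting cells. In S-rich against G2/M-rich cells, 8 of the 15 were called higher and 4 lower, against 23.1% and 23.4% of all genes. Casp8ap2, which recruits the U7 processing particle, had a log2 difference of 0.66, Slbp 0.53, Npat, a coactivator of histone gene transcription, 0.35 and Ncbp1, a cap-binding protein, 0.20. Zfp473, whose human counterpart binds the stem-loop complex, had -1.66 and Cpsf3, the endonuclease that cuts the 3' end, -0.29, or 0.0489 within cluster 3 alone. Slbp and most Hist genes differed between the classes in opposite directions.

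Of 30 histone chaperone and deposition genes, 17 were higher in cycling cells without overlap and 2, Ubn2 and Daxx, were lower, where 18.7% of all measured genes were higher and 11.9% lower. Asf1b, a chaperone of H3 and H4, averaged 89.5 and 4.01 CPM in cycling and resting cells, 22.3-fold higher. Between the classes 12 were called higher and 10 lower in S-rich cells, where 23.1% of all genes were higher and 23.4% lower. Chaf1b and Chaf1a, subunits of the replication-coupled assembly factor CAF-1, had log2 differences of 1.38 and 0.92 and Mms22l, a partner of Tonsl at replication forks, 0.72. Cenpa, the centromeric H3 variant, had -2.20, its chaperone Hjurp -1.30 and Anp32e, which removes H2A.Z, -0.87. Within cluster 5 alone Hjurp had 0.38. Chaf1b stood at 44.1 to 58.2 CPM in S-rich and 17.2 to 21.2 CPM in G2/M-rich cells, without overlap.

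The labels set male against female mice. No histone gene was called between the sexes with edgeR's quasi-likelihood test. Over all cells outside cluster 2, 0 of 72 members tested were called, where 0.0902% of 12194 genes were, and 6 members had an unadjusted p under 0.05, where 8.36% of genes had. DESeq2 also called 0 members, with 7 at an unadjusted p under 0.05. These sums mix states that differed in share between the sexes. Cluster 3 made up 6.93%, 8.84% and 8.64% of cells in the male and 11.48%, 11.23% and 10.75% in the female libraries. Cluster 5 made up 6.39%, 8.38% and 8.66% in the male and 9.92%, 10.66% and 9.62% in the female libraries. The part of these shares in the all-cell result was not tested. The edgeR count of 6 at an unadjusted p under 0.05 moved to 22 of 72 without male library 3, beside 1321 of 12545 genes. It was 16 of 71 without female library 5, beside 787 of 12213 genes. It was 3 without male library 1, male library 4 or female library 2 (533 of 12181, 775 of 12172 and 986 of 12561 genes). Without female library 6 it was 2 (1463 of 12472 genes). In cycling cells, 0 of 67 members were called (0.108% of genes) and 6 had an unadjusted p under 0.05 (4.59% of genes). The 6 became 14 of 67 without female library 5 (526 of 11210 genes) and 12 of 69 without male library 3 (898 of 11326 genes). They became 3 without male library 4 or female library 6 (365 of 11173 and 608 of 11294 genes) and 2 without female library 2 (610 of 11355 genes). In resting cells, 0 of 54 were called (0.0958% of genes) and 1 had an unadjusted p under 0.05 (11% of genes). The 1 became 0 of 50 without male library 1 (618 of 11400 genes) and 6 of 60 without male library 3 (1317 of 11916 genes). It became 2 of 60 with female library 2 left out (1130 of 11953 genes) and 4 of 51 with female library 5 left out (839 of 11438 genes). Within single clusters, 0 of 302 gene by cluster tests of members were called (0.797% of all such tests), and 17 had an unadjusted p under 0.05 (7.18% of such tests). The 17 became 49 of 321 without female library 5, beside 6075 of 95187 tests of all genes. They became 37 of 307 without male library 3 (7301 of 96378 tests) and 11 of 299 without male library 4 (5689 of 92407 tests). Adjusted calls stayed at 0 members with any 1 library left out. DESeq2 called 0 members in each of these, with 7, 2 and 15 at an unadjusted p under 0.05.

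The summed Hist level in cycling cells was 1882 ± 587 CPM in male and 1968 ± 340 CPM in female libraries (SD, n = 3 each), and in resting cells 165 ± 31.3 CPM in male and 176 ± 34.4 CPM in female libraries. The spread within each sex exceeded the difference between the means. The replacement sum in cycling cells was 5013 ± 48.4 CPM in male and 5027 ± 210 CPM in female libraries. The S-rich minus G2/M-rich difference was not called as differing between the sexes for any of 61 members, with 3 at an unadjusted p under 0.05, where 4.82% of genes stood (DESeq2 0 called, 1 at an unadjusted p under 0.05), and 0.0097% of 10313 genes were called. The 3 in edgeR became 8 of 61 without male library 4, beside 430 of 10178 genes. They became 5 without male library 1 (415 of 10184 genes) or female library 2 (532 of 10296 genes).

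**Figure D5:**
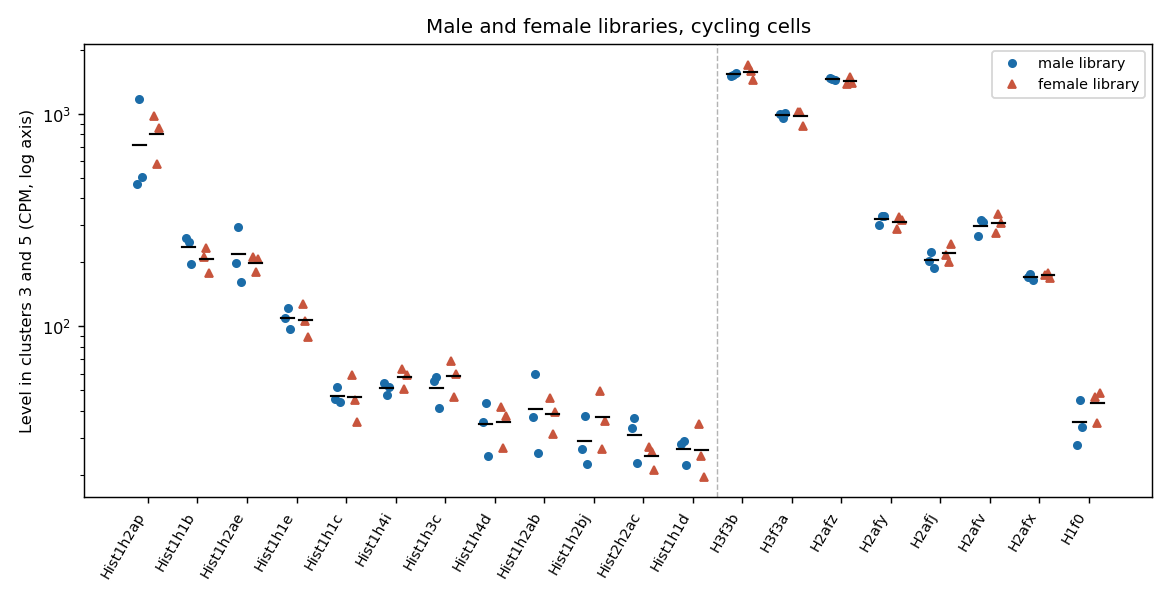
Level in cycling cells (clusters 3 and 5) of the 12 Hist genes with most UMIs and of 8 replacement genes, in CPM on a log axis; circles are male and triangles female libraries, and bars are means of 3 libraries. Male and female values overlapped for the Hist genes shown, among them Hist1h2ap, whose male library 3 stood at 1177 CPM.

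The sex difference itself differed between cycling and resting cells for 1 of 71 members tested, Hist3h2ba, where 2.08% of 11864 genes were called in that interaction. DESeq2 called 0 members, and 9 members in edgeR and 6 in DESeq2 had an unadjusted p under 0.05, against 15% of genes in edgeR. Hist3h2ba, an H2B gene on chromosome 11 (58948920-58949533), stood at 9.84, 13.2 and 11.4 CPM in cycling cells of male libraries 1, 3 and 4 and at 15.6, 16.2 and 19.1 CPM in those of female libraries 2, 5 and 6. In resting cells it stood at 7.31, 10.1 and 8.61 CPM in the male and 8.66, 9.06 and 7.198 CPM in the female libraries. The sexes did not overlap in cycling cells and overlapped in resting cells. The interaction was -0.61 on the log2 scale (SE 0.14, adjusted p = 0.0259, edgeR's quasi-likelihood test), and the male minus female log2 difference in cycling cells alone was -0.57 (adjusted p = 0.296), not called. Without male library 1, male library 3, female library 2, female library 5 or female library 6 the interaction call was lost, at adjusted p of 0.0572 to 0.094, and without male library 4 it was 0.0391.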

How the data were processed

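The authors deposited raw UMI counts of 15601 genes in 26698 cells, with metadata per cell. Per the submitters' processing notes, Cell Ranger, Seurat and build mm10 were used, without versions, and no source used here gives cell filters or doublet treatment. No doublets were removed here, and their part in the high UMI counts of cycling cells was not tested. In other units, the deposited metadata give sex and cluster number. UMI totals and gene numbers equalled the column sums in all 26698 cells. The number after the barcode was taken as the library, 3 per sex. Library numbers cannot be tied to the labels' replicate numbers, and p-values measure the spread between these 6 libraries.

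UMIs were summed per library and state and given as CPM, not divided by length, since the kit reads 3' ends. Sums were tested with edgeR 4.0.16 in R 4.3.3 (TMM, filterByExpr, robust quasi-likelihood, Benjamini-Hochberg over all genes tested, call under 0.05). DESeq2 1.42.0 was an alternative. SE is the log2 difference divided by the square root of F. Tested on simulated data, 96.5% of 200 genes changed by a log2 fold of 1 were recovered in the comparison of the sexes over all cells (12232 genes), with 6.76% false among the genes called, above the 5% aimed at. In the S-rich against G2/M-rich comparison (10298 genes) 99.5% were recovered, with 3.86% false. The simulation gave all genes the same dispersion, and the changed genes had at least 200 UMIs. Its libraries differed in depth only, so it does not test how the library block deals with differences between libraries. In the data, the SE of the sex difference over all cells was 0.08 for H2afx but 0.47 for Hist1h2ap. The recovered share therefore does not hold for members that vary as much as Hist1h2ap. In phase classes, 586 cells (12.3%) lay within 2 points of a boundary. Named genes were the 12 Hist genes with most UMIs, replacement genes with at least 500 UMIs, members called in a sex test or interaction, the 5 per direction with the largest called phase difference and up to 6 called per pathway list. Others, such as Hist1h1a, Hist1h4b, Asf1b and the genes under 2-fold, were named after their values were seen. The members, lists and comparisons were chosen with earlier results of these data known.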

Additional observations from a re-analysis of the deposited data

Results flagged for a closer look

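Of 52 library ratios checked (25 members and 2 sums, cycling over resting and S-rich over G2/M-rich cells where each library had counts), 3 had 1 library set apart from the others by most of the range, and chance sets apart about 1 in 20. For Hist1h1c, an H1 gene, male library 3 had a log2 ratio of S-rich over G2/M-rich cells of -1.71, against -1.34 to -1.25 in the other libraries. For Hist1h3a, an H3 gene, male library 3 had a log2 ratio of cycling over resting cells of 1.97, against 2.45 to 2.66. For Hist1h2bc, an H2B gene, male library 1 had a log2 ratio of cycling over resting cells of 2.13, against 1.32 to 1.61.

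For Hist3h2ba, an H2B gene, the male minus female difference was lower in cycling than in resting cells by the interaction term, at -0.61 on the log2 scale (SE 0.14, adjusted p = 0.0259 with edgeR).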

How the results depend on the processing

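No paired analysis was made for the sexes, since the labels do not pair a male with a female sample. The library numbers also do not carry the replicate numbers of the labels. The S-rich against G2/M-rich comparison was paired by library, and without the block 49 of 55 members were called (55 passed the filter), against 57 of 61. Among all genes, 3207 of 9830 were called without the block, against 4794 of 10313 with it. Counts of members called in that comparison changed to 28 of 60 with cluster 3 alone, 22 of 37 with cluster 5 alone and 29 of 35 with cells thinned to 4000 UMIs. Of all genes, 49.5%, 26.7% and 29.8% were called there. With 1 library left out, 54 to 57 members were called, among 4269 to 4567 genes called in all. Without male library 3 and female library 2, a run added once the data had been seen, 52 of 61 members and 4042 of 10332 genes were called. Fewer members passed the filter with cluster 5 alone or thinned cells (37 and 35), and further causes were not tested. The sex comparisons called 0 members in every alternative run. The interaction of sex and cycling state gave 0 or 1 called member with 1 library left out, where H2afv (log2 -0.26, adjusted p = 0.0264) was called in place of Hist3h2ba without male library 3. DESeq2 called 0 members and gave Hist3h2ba no adjusted p (unadjusted p = 0.00463). Counts over all genes moved more. With DESeq2 in place of edgeR they were 127 against 11 for the sexes over all cells, 33 against 12 in cycling cells, 145 against 11 in resting cells, 107 against 247 for the interaction and 3011 against 4794 for S-rich against G2/M-rich cells. Without a filter on low counts they were 25 in resting cells and 1434 against 751 within clusters. With cluster 5 alone or thinned cells the S-rich comparison gave 2476 and 2243. With 1 library left out, the interaction gave 41 to 333 and the tests within clusters 232 to 1262 genes.

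Reversed values in the S-rich minus G2/M-rich comparison were Hist1h1b 0.20, H3f3a 0.0607, H2afy 0.0115 and Cpsf3 0.0489 in cluster 3 alone, H3f3a 0.15, H2afj -0.10 and Hjurp 0.38 in cluster 5 alone, H3f3a 0.12 and H2afy 0.0425 in thinned cells, and H3f3a 0.0057 and H2afy 0.0072 without female library 2, all log2. For the middle class minus the outer classes, a description added once the data had been seen, they were Hist1h1c -0.12 and Hist1h1d -0.0282 in cluster 3 alone and Hist1h1c -0.24, Hist1h4i -0.18 and Hist1h2bj -0.0594 in cluster 5 alone. Weighting cells equally gave 1776 CPM of Hist mRNA in cycling and 172 CPM in resting cells, within 1 SD of 1925 and 171. Leaving out male library 3 and female library 2 gave 52 Hist and 6 replacement genes higher in cycling cells without overlap, against 49 and 5. The share of all genes in that setting was not determined. Fewer libraries leave fewer values that can overlap, so the rise cannot be read as a result about these genes.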
